A study of Mus musculus with 2 samples.

Results

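The genes described here are 34 members of the unfolded protein response, the stress response of the endoplasmic reticulum (ER), chosen by symbol: every array probe outside the controls whose gene name equals a member's symbol was taken. They cover 65 of 56605 probes and 34 of 37074 gene names on the array, and all 34 had at least 1 probe. The tissue is mouse blood, whose total RNA was read on 1-colour Agilent arrays. One array holds the heated sample, which the labels describe as kept for 1 h in a 37 °C water bath before 1 h at 38.5 °C, and one holds the control sample, for which no temperature or time is given. Effects of the heat can therefore not be told apart from those of the pretreatment or of handling, and the labels leave unstated whether whole animals or drawn blood were warmed. Strain, age and the number of animals behind each sample are not stated either. In both samples, per the labels' protocols, red and white cells were lysed differentially and globin transcripts were depleted. Although the protocols speak of 3 replicates per line, a single array stood for each group. The differences below thus carry neither a replicate check nor a p-value, and precision is limited by the number of arrays. The arrays shared a slide and a scan time.

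The unfolded protein response adjusts the folding capacity of the ER to the load of newly made secretory and membrane proteins. Its sensors are the kinase and nuclease IRE1, the kinase PERK and the membrane-bound transcription factor ATF6, and the chaperone BiP holds them inactive until unfolded proteins draw it away. IRE1 splices the transcript of the transcription factor XBP1, ATF6 is cut in the Golgi to release its active part, and PERK phosphorylates eIF2 alpha, which slows translation while favouring that of ATF4. ATF6 and XBP1 raise chaperones and the machinery of ER-associated degradation (ERAD), and ATF4 raises genes of amino acid supply and of cell death such as Ddit3. Cells that secrete much protein, such as plasma cells and activated macrophages, rely on this response.

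Every difference below is a log2 value of heat minus control, after each array was scaled to the 75th percentile of its probes (604 for the heated and 620 for the control sample). Signals in the text are processed signals as the scanner software gave them, in arbitrary brightness units. Scaling adds 0.04 to the log2 ratio of such signals, so a probe with nearly equal signals can have a difference just above 0. Signals depend on the probe as well as on the RNA, so they were set side by side between arrays and not between genes. For a gene with several probes, the differences of those well above background on both arrays were averaged. The monocyte markers Lyz2, Csf1r, Adgre1, Cd14, Ly6c1 and Ccr2 were all detected, and the summed signal of their brightest probes, most of it from Lyz2 and Csf1r, was 442151 on the heat array against 445682 on the control array. After scaling, the differences of all 6 were above 0, between 0.00 for Adgre1 and 0.73 for the dim Ccr2. Of 5 neutrophil markers 3 were detected on each array (S100a8, S100a9 and Csf3r), while Cxcr2 and Ly6g were not. The list's sums were 57392 and 58101 (heat and control), most of it from Csf3r, and the scaled differences 0.01 to 0.11. Of 4 T cell markers 2 were detected, Cd3e and Cd4, while Cd3g and Cd8a were not. Their list's sums were 1927 and 1872 (heat and control), most of it from Cd4. Of 4 erythroid markers 1 was detected on each array, Hba-a1, and of 4 platelet markers 1, Pf4. The platelet list's sums, nearly all from Pf4, were 11517 on the heat array against 9865 on the control array. The part of cell makeup in the members' values was not tested. Fewer cells of a type and less RNA per cell cannot be told apart in such bulk RNA.

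The unfolded protein response was well represented in both samples and lay close to equal between them. Of the 65 member probes, 62 (95.4%) were well above background on each array, against 53.8% of all probes in the heated and 52% in the control sample. Of the 34 members, 33 could be measured on both arrays, and the exception was Derl3. The number of members at least 2-fold apart was 0 of 33, where 0.663% of 18562 measured genes were. Differences of the members lay between -0.25 for Asns and 0.22 for Hyou1, with a median of -0.03 (0.01 with the mean minus local background), and the median of all measured genes was 0.01. Only Asns reached 0.25 in size (1.19-fold), which is 3.03% of the measured members, against 17.9% of all measured genes. It stayed under 0.25 with quantile normalization, with the mean minus local background, with the authors' values and with the brightest probe per gene. The share of all genes at 0.25 or more was 8.77% and 8.27% with normexp (75th percentile and quantile), 7.39% among the brighter 50% of detected probes and 37.2% without a filter on dim probes. Within 0.1 of 0 lay 24 members (72.7%), against 48.5% of all measured genes.

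The small spread of the members went along with their bright probes. Of the 33 measured members, 18 lay in the brightest 20% of measured genes, where the middle 95% of all genes ran from -0.28 to 0.24. In the dimmest 20%, which held 1 member, Hyou1, it ran from -0.76 to 0.65. All 33 lay inside the middle 95% of all measured genes, -0.50 to 0.45. As yardsticks of measurement error, single-spot differences of probes printed at several spots had an SD of 0.08 around their probe's mean (285 probes), and probes of one gene had an SD of 0.19 around their gene's mean (6553 genes). For the 21 members with at least 2 usable probes the SD between probes was 0.14. The errors that the scanner software gave for the member probes amount to a median of 0.20 for the log2 difference of a single probe. Of the 33 members, 29 lay within that, though many of their values are means over several probes. The software's error was nearly the same for all bright member probes and larger than the SD of 0.08 between spots. How many of all measured genes lay within 0.20 was not counted, so the 29 say nothing particular to the members.

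**Figure D1:**
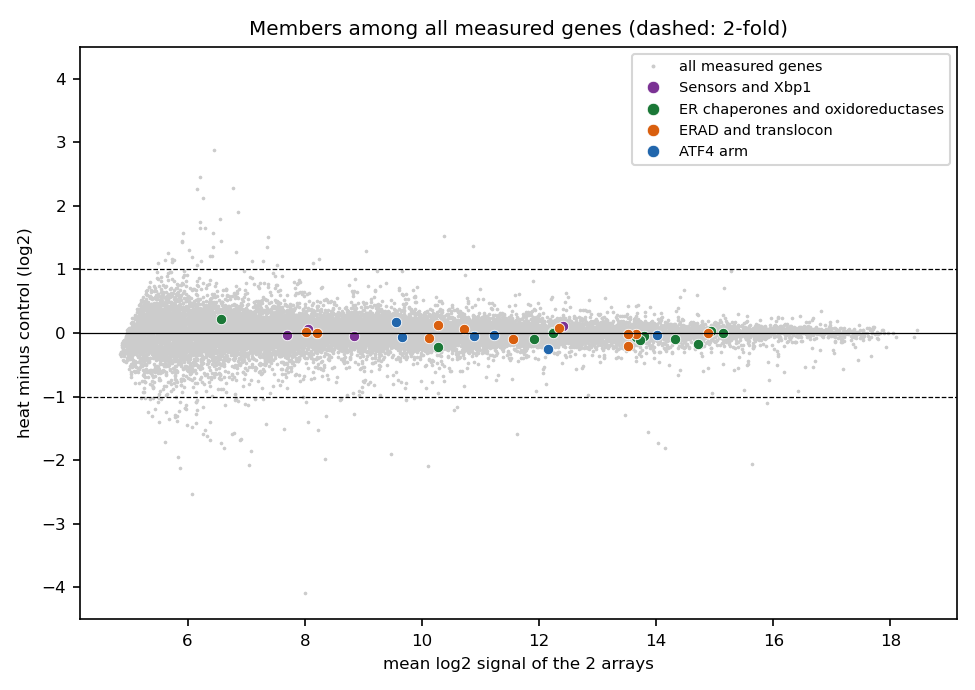
Heat minus control difference (vertical axis, log2) against the mean log2 signal of both arrays (horizontal axis) for 18562 measured genes in grey and 33 members in colour by role. All members lie between -0.25 and 0.22, inside the dashed lines of a 2-fold difference, and most lie to the right, where all genes scatter less.

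Of the 33 measured members, 21 had a value below 0 and 12 above 0, which is 63.6% below 0 against 47.8% of all measured genes. These counts shift with the scaling: with the mean signal minus local background 16 members lay below 0, against 35.3% of all measured genes. Under each of 11 alternatives to the processing that gave the member a value, 20 members kept 1 sign, 12 of them below 0 and 8 above 0. The sign of the other 13 turned under at least 1 alternative. How many of all measured genes kept 1 sign was not counted, so nothing particular to the members can be read from this. The 11 are not separate checks. Naming probes through RefSeq records left every member's value unchanged, and the authors' values nearly repeat quantile normalization. For a member with 1 probe, the choices among probes could not change the value.

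**Figure D2:**
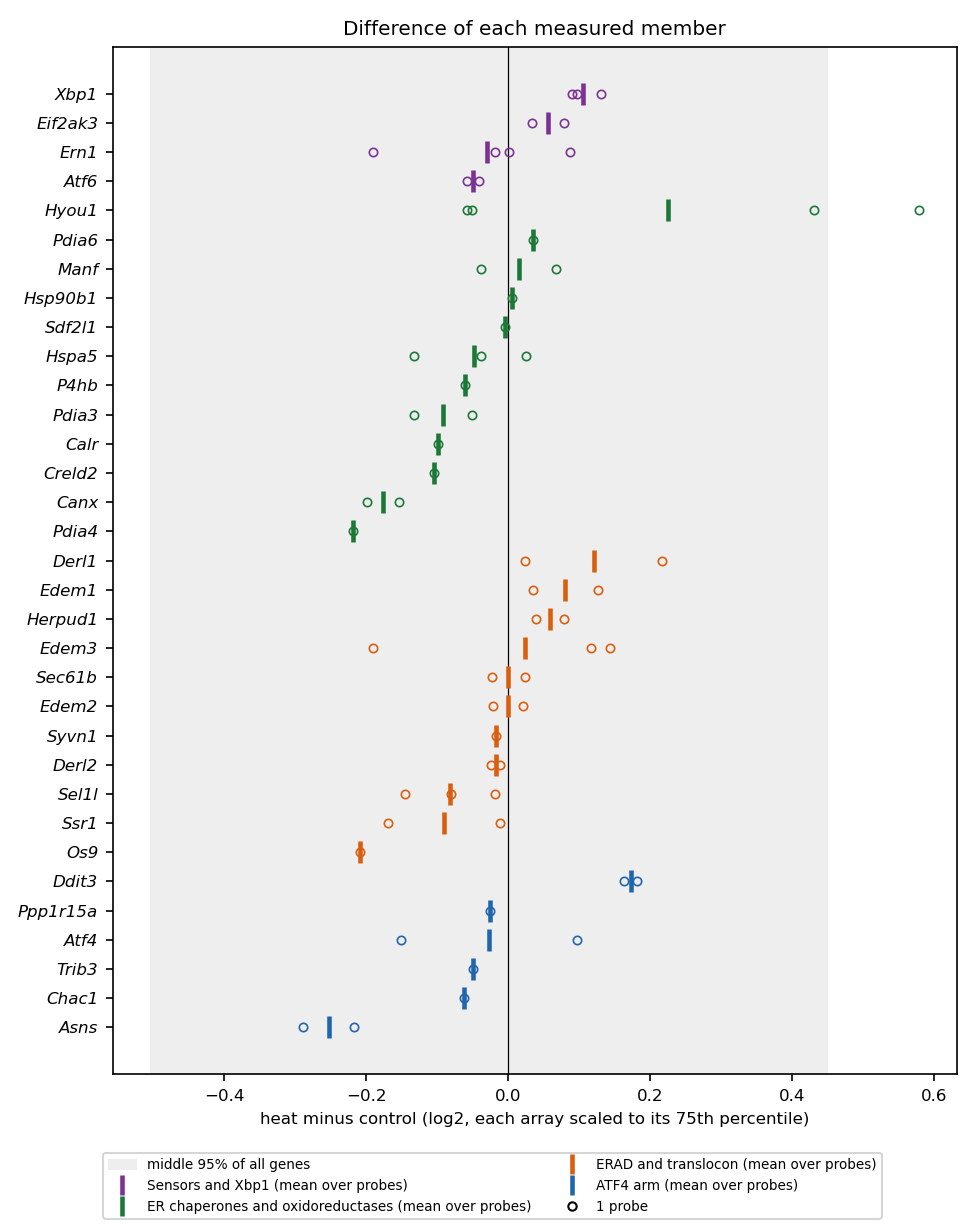
Heat minus control difference (horizontal axis, log2) of the 33 measured members, grouped by role; open circles are single probes, bars the mean over a gene's probes and the grey band the middle 95% of all measured genes. Asns lies lowest at -0.25 and Hyou1 highest at 0.22, with its 4 probes spread from -0.06 to 0.58.

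The 3 sensors were detected on both arrays, and their differences lay within 0.1 of 0. Together with Xbp1 their median was 0.01, and it was below 0 with quantile normalization, the authors' values and cyclic loess. Ern1 encodes IRE1, and its probe near the transcript's 3′ end (record position 6885) had signals of 1639 on the heat array against 1682 on the control array. Over 4 usable probes Ern1 differed by -0.03, with single probes from -0.19 to 0.09, and the sign turned under 4 of 11 alternatives: normexp scaled to the 75th percentile, the mean minus local background, the brighter 50% of detected probes and the brightest probe per gene. A further Ern1 probe stayed near background on both arrays. Atf6, the sensor that becomes a transcription factor, had signals of 3198 and 3380 (heat and control) at its brighter probe and a difference of -0.05 over probes at -0.06 and -0.04. Eif2ak3 encodes PERK, and its brighter probe read 1173 on the heat array against 1141 on the control array, for a difference of 0.06 over 2 probes. The values of Atf6 and Eif2ak3 kept their signs under every alternative tried.

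Xbp1, the transcription factor whose messenger RNA IRE1 splices, was slightly higher in the heated sample at each of its 3 probes. Its signals were 23677, 3166 and 2272 on the heat array, against 22222, 3039 and 2193 on the control array. The probe differences were 0.13, 0.10 and 0.09, and their mean of 0.11 lay at percentile 74.1 of all measured genes. Under the alternatives the value ran from 0.10 to 0.21. The probes start at positions 2066, 1220 and 1119 of the transcript, downstream of the intron that IRE1 removes, so they read the spliced and the unspliced form together.

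The ER chaperones and lectins, which bind unfolded or glycosylated proteins, had 3 values above 0 and 5 below 0 and a median of -0.03. Hspa5 encodes BiP, the main ER chaperone and a standard readout of the response. One of its 3 probes crosses an exon junction in the coding sequence (mm9, chr2:34630699-34631075, plus strand) and is shown as an example of what the array reads:
Hspa5 probe: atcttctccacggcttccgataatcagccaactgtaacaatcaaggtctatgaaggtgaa

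This probe read 7252 on the heat array against 7646 on the control array, a difference of -0.04. The other Hspa5 probes read 37085 and 9621 on the heat array, against 41778 and 9716 on the control array, for differences of -0.13 and 0.02. The gene's mean was -0.05, and it reached -0.17 with normexp background correction scaled to the 75th percentile. The brightest Hspa5 probe gave the lowest value of the 3. A brightest probe below the dimmest was found in 8 of 21 members with several usable probes, Hspa5 among them, and in 53.9% of 6553 such genes.

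Hsp90b1, which encodes the ER form of HSP90 (GRP94), had signals of 35753 on the heat array against 36571 on the control array. Its difference was 0.01, and it turned below 0 under both normexp settings (to -0.18) and with the mean minus local background. Canx, the membrane-bound lectin calnexin, read 34620 and 17782 on the heat array, against 40835 and 20326 on the control array, and was lower at both probes (-0.20 and -0.15). Its mean of -0.18 kept its sign under every alternative, between -0.20 and -0.12. The soluble partner of calnexin, calreticulin (Calr), went the same way, with 19581 in the heated sample against 21538 in the control sample and a difference of -0.10.

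Hyou1, an HSP70 relative that exchanges the nucleotide of BiP, had the highest mean of the members, 0.22, at percentile 89.1 of all measured genes. Its probes disagreed. A pair of them read 47.3 and 181.6 on the heat array, against 32.6 and 138.4 on the control array (0.58 and 0.43). The other pair read 86.1 and 144.8 on the heat array, against 91.7 and 154.9 on the control array (-0.05 and -0.06). All 4 are dim, the probe at 0.58 was designed on an Ensembl transcript and the others on the RefSeq record, and the value was 0.08 with normexp and quantile normalization and 0.43 with the brightest probe per gene. The smaller cofactors were close to equal. Manf, a secreted factor induced by ER stress, differed by 0.01 over 2 probes of opposite sign. Sdf2l1, a partner of BiP's co-chaperones, had 4747 in the heated sample against 4890 in the control sample. Creld2, a further ER stress-induced protein, differed by -0.10, with signals of 12848 and 14192 (heat and control).

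The protein disulfide isomerases, which form and rearrange disulfide bonds in the ER, had 1 value above 0 and 3 below 0, with a median of -0.08. Pdia4 (ERp72) had the lowest value among them, with 1134 on the heat array against 1356 on the control array. Its difference of -0.22 lay at percentile 10.66 of all measured genes, rested on 1 probe and kept its sign under every alternative, between -0.23 and -0.11. With 1 probe, the alternatives that choose among probes could not change this value. Pdia3 (ERp57), the isomerase that works with calnexin and calreticulin, read 8420 and 1606 on the heat array, against 9478 and 1709 on the control array. Its mean was -0.09 over both probes, and 0.03 with the mean minus local background. P4hb, the founding isomerase of the family, had -0.06 at its usable probe, with 12456 in the heated sample against 13346 in the control sample. Pdia6 had 0.03, which became negative under both normexp settings and with the mean minus local background. Together with the chaperones, these 12 genes had a median of -0.05 (-0.13 with normexp scaled to the 75th percentile), with 4 above 0 and 8 below 0.

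**Figure D3:**
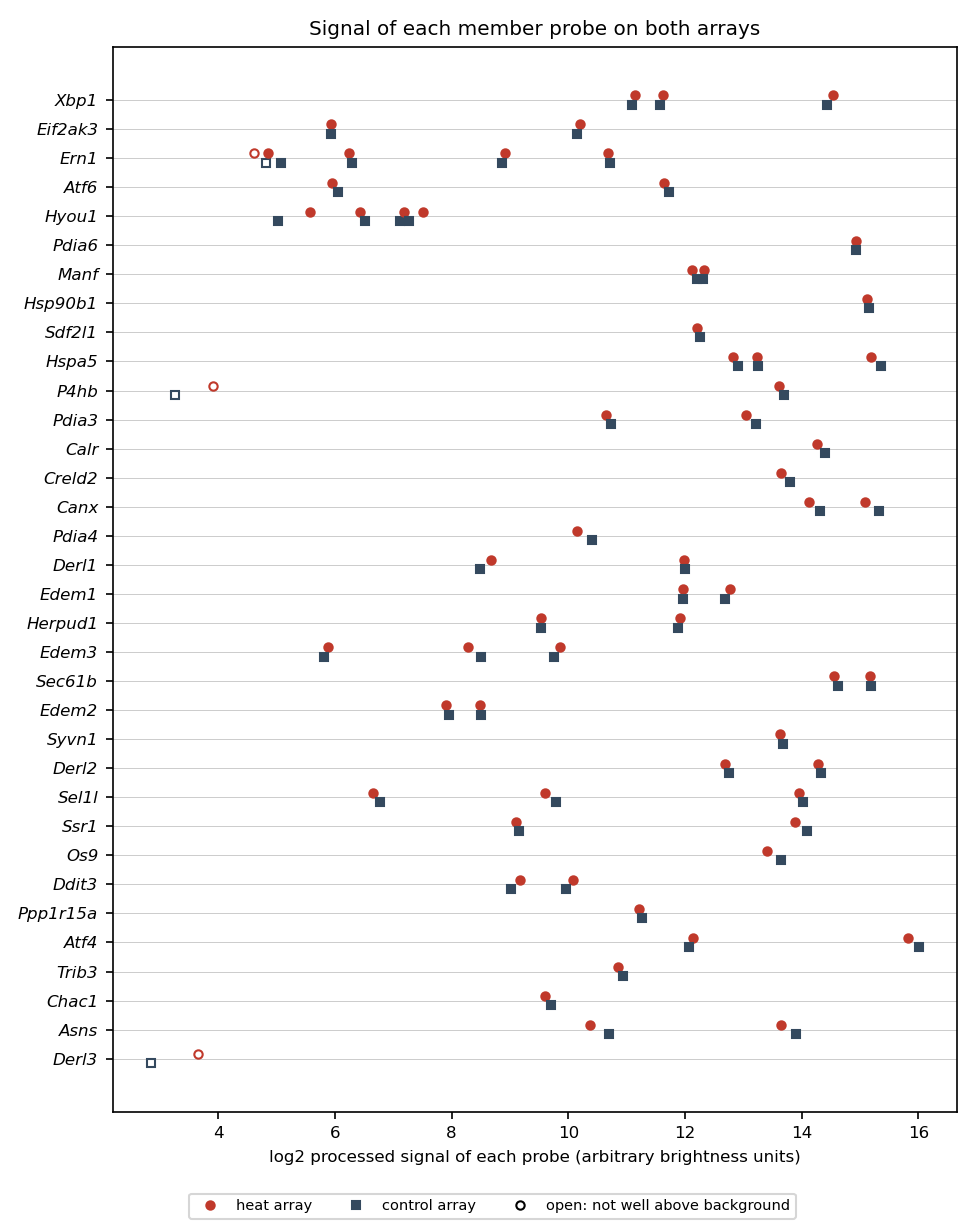
Log2 processed signal (horizontal axis, arbitrary brightness units) of each member probe on the heat array (circles) and on the control array (squares); open symbols are not well above background. The symbols of a probe lie close together for nearly every probe, and Derl3 is the only member with open symbols alone.

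The promoters of several of these genes share the ER stress response element (ERSE), a site that ATF6 and XBP1 are known to use together with the factor NF-Y. It was searched as CCAAT, 9 bases of any kind and CCACG on both strands of RefSeq promoter windows of GRCm38.p6, from 250 bases before to 50 bases after each annotated start. Windows were held for 30 of the 34 members, and 8 of these 30 (26.7%) carried the element, against 37 of 27025 genes (0.14%). The members were chosen as genes of this response, so a high share among them says nothing about these samples. A match is a description of the letters and no evidence of binding. The stretches are printed on each gene's strand, with the fixed letters of the element in capitals. In Calr, Derl3 and Creld2 it runs in reverse, and Hsp90b1 carries it once in each direction:
Hspa5 (chr2:34772013-34772055, plus strand): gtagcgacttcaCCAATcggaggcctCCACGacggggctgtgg
Calr (chr8:84847063-84847105, minus strand): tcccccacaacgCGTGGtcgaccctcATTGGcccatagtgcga
Canx (chr11:50325788-50325830, minus strand): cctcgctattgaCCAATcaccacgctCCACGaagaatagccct
Hsp90b1 (chr10:86705521-86705668, minus strand): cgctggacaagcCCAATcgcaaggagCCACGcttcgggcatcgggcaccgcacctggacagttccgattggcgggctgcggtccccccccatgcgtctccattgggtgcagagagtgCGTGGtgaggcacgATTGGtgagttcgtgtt
Pdia6 (chr12:17266479-17266521, plus strand): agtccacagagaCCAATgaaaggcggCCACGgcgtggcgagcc
Creld2 (chr15:88819508-88819550, plus strand): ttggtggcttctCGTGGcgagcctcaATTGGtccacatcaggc
Syvn1 (chr19:6046520-6046562, plus strand): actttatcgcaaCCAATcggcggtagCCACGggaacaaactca
Derl3 (chr10:75893230-75893272, plus strand): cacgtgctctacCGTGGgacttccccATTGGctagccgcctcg

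The 7 measured members with the element differed by -0.18 to 0.03, with a median of -0.05 and 5 of 7 values below 0. The 22 measured members with a window but without it ran from -0.25 to 0.17, with a median of -0.03 and 15 of 22 below 0. The ranges overlapped, and the difference between these sets was not tested. The shorter form ERSE-II (ATTGG, 1 base of any kind and CCACG) was present in 1 member, Herpud1, and in 12 of 27025 genes. The XBP1 element searched as TGACGTGG was in none of the 30 members' windows and in 193 genes (0.71%). The ERSE-II of Herpud1 is printed in the same way:
Herpud1 (chr8:94386365-94386399, plus strand): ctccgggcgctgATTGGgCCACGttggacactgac

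The ERAD genes, which recognise misfolded proteins, pass them through the membrane and mark them for the proteasome, had 4 values above 0 and 5 below 0 among 9 measured members. Their median lay at 0.00 on the log2 scale. Herpud1, a membrane organiser of the ERAD complex and a sensitive target of the response, read 3866 and 744.3 on the heat array, against 3759 and 744.1 on the control array. Its difference was 0.06 and kept its sign under every alternative. Edem1, a mannosidase-like protein that hands glycoproteins to degradation, had 0.08 at 2 probes that were both above 0. Its relatives Edem2 and Edem3 had values near 0, and Edem3's probes ran from -0.19 to 0.14.

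Os9, a lectin that delivers glycoproteins to the ubiquitin ligase, had the lowest ERAD value. It read 10821 in the heated sample against 12848 in the control sample, a difference of -0.21 at percentile 11.5 of all measured genes, from 1 probe, and between -0.21 and -0.10 under the alternatives. Sel1l, the adaptor of that ligase, had -0.08 with all 3 probes below 0, and 0.01 with the mean minus local background. The ligase itself, Syvn1 (HRD1), was nearly equal, with 12637 on the heat array against 13131 on the control array. Its difference of -0.02 turned above 0 with normexp and quantile normalization and with the mean minus local background.

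The derlins are membrane proteins of the export channel. Derl1 had 0.12 on average, with 4039 on the heat array against 4080 on the control array at its brighter probe (0.02) and 406.8 against 359.7 at the other (0.22). That other probe was designed on a record outside RefSeq, and Derl1 had 0.02 with the brightest probe per gene. Derl2 had -0.02, and its sign turned under both normexp settings and with the mean minus local background. Derl3, which is known for its high expression in secretory cells such as plasma cells, had 12.5 on the heat array against 7.21 on the control array, not well above background on either. Of 6 plasma cell markers, Sdc1 and Prdm1 were detected on each array, while Irf4, Tnfrsf17, Mzb1 and Jchain were not well above background on either. The summed signal of that list was 4736 on the heat array against 5330 on the control array. Among the translocon members, which thread new proteins into the ER, Sec61b differed by less than 0.01 with 36890 and 37273 (heat and control) at its brighter probe. Ssr1, a subunit of the translocon-associated complex, had -0.09 from probes at -0.17 and -0.01.

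The ATF4 arm held both the lowest value of all members and one of the highest. Of its 6 genes, 5 had values below 0 and 1 above 0, with a median of -0.04. Asns encodes asparagine synthetase, a standard target of ATF4 in amino acid shortage, and Ddit3 encodes CHOP, a transcription factor of ER stress-induced cell death. The junction-crossing probes of both lie in coding sequence, Asns at mm9 chr6:7626110-7626255 on the minus strand and Ddit3 at mm9 chr10:126732518-126732821 on the plus strand:
Asns probe: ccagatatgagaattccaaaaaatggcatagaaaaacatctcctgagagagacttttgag
Ddit3 probe: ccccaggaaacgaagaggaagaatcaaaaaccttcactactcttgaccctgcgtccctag

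The Asns probe above read 1317 on the heat array against 1653 on the control array, and the other Asns probe 12768 and 15241 (heat and control). Both were lower in the heated sample, at -0.29 and -0.22, and the mean of -0.25 lay at percentile 8.59 of all measured genes. It ran from -0.28 to -0.22 under the alternatives. The Ddit3 probe above, designed on the RefSeq record, read 1080 on the heat array against 990.1 on the control array. The other Ddit3 probe, designed on an Ensembl transcript, read 575.6 and 521.1 (heat and control). Both were higher in the heated sample, by 0.16 and 0.18, with a mean of 0.17 at percentile 84.1 and a range of 0.16 to 0.23 under the alternatives. Asns and Ddit3 thus lay on opposite sides of 0 at every probe.

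Atf4 itself, the factor that both are known to respond to, had probes that disagreed in sign, with 57578 on the heat array against 65673 on the control array at the brighter probe (-0.15) and 4494 against 4316 at the other (0.10). Its mean was -0.03. Trib3, a pseudokinase target of ATF4 and CHOP, had 1842 in the heated sample against 1959 in the control sample, a difference of -0.05. Chac1, a glutathione-degrading enzyme induced late in the response, had 777.9 and 834.7 (heat and control), or -0.06. Ppp1r15a encodes GADD34, which reverses the phosphorylation of eIF2 alpha, and had 2362 and 2470 (heat and control). Its difference was -0.03, and 0.03 with the mean minus local background.

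The C/EBP-ATF response element bound by ATF4 was searched in its core form TGATGCAA and was present in 2 of the 30 members' windows, Chac1 and Herpud1, against 279 of 27025 genes (1.03%). Both carry it in reverse, as shown with the core in capitals:
Chac1 (chr2:119351037-119351068, plus strand): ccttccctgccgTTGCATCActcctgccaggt
Herpud1 (chr8:94386305-94386336, plus strand): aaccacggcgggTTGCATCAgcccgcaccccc

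Their differences were -0.06 for Chac1 and 0.06 for Herpud1. The letters were not found in the windows of Asns, Ddit3 or Trib3, which says nothing of elements outside these windows. Only the exact core was searched, so variant forms of the element inside the windows were not looked for.

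Further genes of the same pathway were taken from lists, drawn up with earlier results of these data known. The measured genes named from each list are up to 4 with the largest differences. Of the 96 listed genes, 93 were measured, 40 with values above 0 and 53 (57%) below 0, against 47.8% of all measured genes below 0. Their values ran from -0.68 to 0.36, with a median of -0.04. That range was wider than that of the members, but it covers 93 genes against 33, and more genes tend to span a wider range. Its ends, Hspa13 and the dim Vldlr, rest on 1 usable probe each. With the mean minus local background 39 lay below 0, against 35.3% of all measured genes, and the median was 0.02. None was 2-fold apart, against 0.663% of all measured genes, and 5 reached 0.25 in size, against 17.9%. The count at 0.25 was 3 to 10 under the alternatives, and 1 gene was 2-fold apart without a filter on dim probes. Among 21 other chaperones, co-chaperones and glycan-processing genes, Hspa13, an HSP70 relative of the ER, had the lowest value at -0.68, with signals of 1024 on the heat array against 1683 on the control array at 1 probe. Mogs, the glucosidase that starts glycan trimming, had -0.31, Pdia5 had -0.20, and the dim Uggt2, a glycoprotein folding sensor, had 0.35.

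Among 20 other ERAD genes none reached 0.25 in size. Erlin2, a membrane scaffold, had -0.21, Selk and Vimp, which encode ER selenoproteins, had 0.19 and 0.11, and Nploc4, a cofactor of the segregase VCP, had 0.14. Of 15 other translocon and signal peptidase genes, 9 lay below 0, with Srprb of the signal recognition particle receptor at -0.22 and its partner Srpr at 0.13. Sec63 had -0.15, and so did Sec61a1, whose 3 probes ran from -0.67 to 0.10.

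On the eIF2 alpha side, 6 of 7 genes had values below 0, against 47.8% of all measured genes. The count was 4 of 7 under both normexp settings and with the mean minus local background. The 6 were the kinases of heme shortage (Eif2ak1, -0.16) and of amino acid shortage (Eif2ak4, -0.13), eIF2 alpha itself (Eif2s1, -0.18) and 3 others, while Nck1 had 0.13. The others were Eif2ak2 (-0.08), Ppp1r15b (-0.01) and Dnajc3 (-0.08), the last of them also counted among the chaperones. Eif2ak4 changed sign under 1 of the 11 alternatives, and Eif2ak2 and Ppp1r15b under 3 each. Eif2ak1, Eif2s1, Dnajc3 and Nck1 kept their signs. Of 26 further integrated stress response targets 23 were measured, 11 with values above 0 and 12 below 0. Vldlr, a lipoprotein receptor, had 0.36 and Nfe2l2, which encodes the antioxidant regulator NRF2, 0.25. The amino acid transporter gene Slc7a1 and the mTOR inhibitor gene Ddit4 each had -0.23. Fgf21, Stc2 and Cth were not well above background on either array. Of 8 genes of the ATF6 and CREB3 family and its proteases, Mbtps1, the Golgi protease that makes the first cut in ATF6, had -0.19 with all 4 probes below 0, Creb3l3 had 0.14, Atf6b -0.09 and Mbtps2 -0.08. For the cytosolic heat shock response, Hspa1a and Hspa1b, which encode inducible HSP70, had 0.28 and 0.31, from 1 usable probe each. Of all measured genes 17.9% reached 0.25 in size, and both values lay inside their middle 95%, -0.50 to 0.45. These 2 genes were not run under the alternatives.

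**Figure D4:**
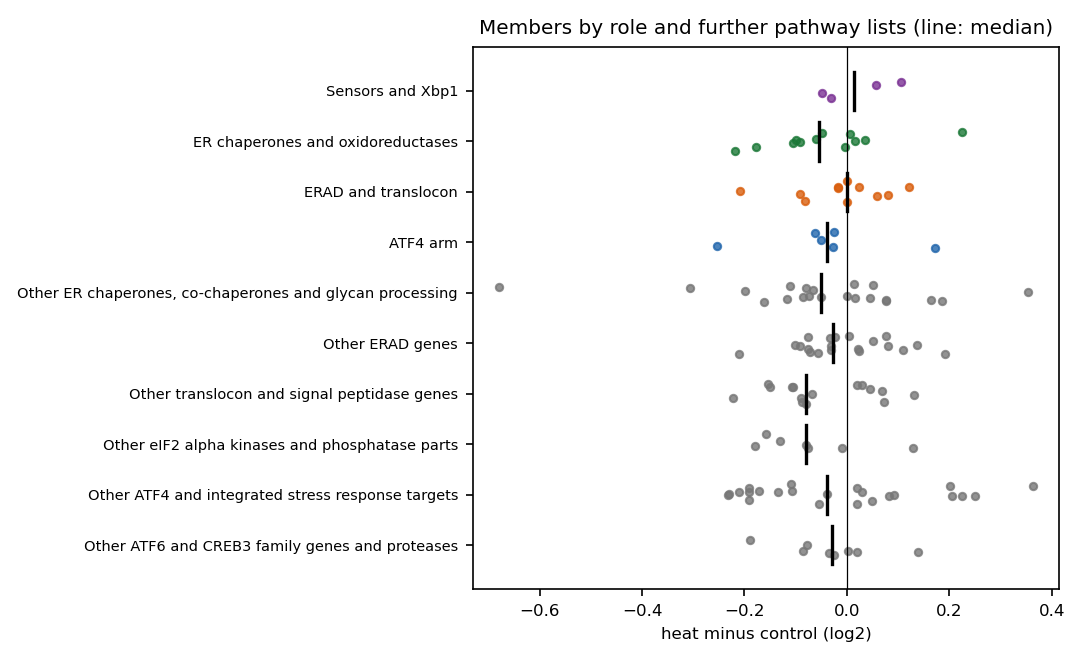
Heat minus control difference (horizontal axis, log2) of measured genes in the 4 role groups of members (coloured points) and in 6 further pathway lists (grey points), with the median of each as a black line. The medians of the role groups lie between -0.05 and 0.01, and Hspa13 at -0.68 lies farthest from 0.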

How the data were processed

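The deposited scanner files hold linear intensity values of the green channel; per the file headers they were made with Agilent Feature Extraction 10.7.1.1 and carry mm9 probe positions, while the submitters' processing notes name version 9.1. Deposited with them are other marks per spot (outlier, saturated, well above background), set by that software per the file headers. The value table that the authors deposited holds log2 values with a median of 5.26 per column. Its differences matched those of quantile-normalized processed signals with r of 0.9999 over 28755 probes, which settles scale and direction. Of 62976 spots per array, 59305 lay outside the controls, none was saturated, and those marked as outliers (168 in the heated and 149 in the control sample) were dropped.

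Processed signals were taken to log2, spots of a probe averaged and each array's 75th percentile subtracted. A probe was detected when over 0.5 of its spots were well above background. Probe names came from the scanner files: 53 of the 65 member probes had a record in the RefSeq table, and all 53 carried the member's symbol there. The members, lists, thresholds and alternatives were chosen with earlier results of these data known. Of each further list, up to 4 measured genes with the largest differences were named. The steps were tested on simulated data with planted differences above 2-fold and the detection marks of 1 array. That test does not bear on the small differences of the members or on the detection filter. R 4.3.3, limma 3.58.1, Python 3.11.15 and pandas 2.3.3 were used.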

Additional observations from a re-analysis of the deposited data

How the results depend on the processing

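With 1 array per group nothing here can be separated from variation between samples. No paired analysis was possible because each group held 1 array. Of 361 values of single members under 11 alternatives, 28 moved by more than the spot SD of 0.08. Part of the 361 could not move: naming through RefSeq records left all members unchanged, as did choices among probes for members with 1 probe. The members' median and the medians of the role groups moved by no more than that SD, though near 0 their signs could turn, and the count of members below 0 by no more than 1.5 times, under each of the 11. The count of members at least 2-fold apart was 0 under each of them. The count of members at 0.25 or more in size, 1 as reported, was 0 with quantile normalization, the mean minus local background and the authors' values, and 3 without a filter on dim probes. The share of all genes at least 2-fold apart, 0.66% as reported, was 0.19% and 0.20% with normexp (75th percentile and quantile), 0.16% among the brighter 50% of detected probes and 4.68% without a filter on dim probes, where the median of all genes was -0.10. P4hb had 0.31 there, through a dim probe. Cyclic loess was added after seeing the data.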
